A study of Mus musculus with 2 samples.

Results

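The *Zfp* genes described here encode zinc finger proteins of mouse embryonic stem cells (mESCs), and they were taken by name: every gene whose symbol is *Zfp* followed by digits only, without *Zfp42*, *Zfp57*, *Zfp445* and *Zfp827*, that had at least 200 unique molecular identifiers (UMIs, each 1 captured mRNA molecule) over both libraries. Of 31053 genes in the deposited lists, 363 carry such a name and 290 passed the minimum. Of the other 73, 23 had fewer than 20 UMIs, and 12 of those had none. The 5 genes just inside the minimum were *Zfp52* (217 UMIs), *Zfp169* (214), *Zfp786* (211), *Zfp759* (208) and *Zfp947* (205), and the 5 just outside were *Zfp109* (193), *Zfp46* (189), *Zfp458* (185), *Zfp963* (176) and *Zfp28* (176).

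Single-cell RNA-seq was made from E14 mESCs, a feeder-free line, grown on gelatin in serum with leukemia inhibitory factor (15% FBS and 1000 U/ml LIF). There were 2 libraries, 1 of wild-type cells (WT) and 1 of cells in which *Smad1* and *Smad5*, the intracellular mediators of BMP signaling, were knocked out with CRISPR-Cas9 (S1/5 dKO). The labels do not say which knockout clone was sequenced. *Smad1* had 13.4 UMIs per 1000000 UMIs (CPM) in WT and 9.17 in the other library, and *Smad5* had 6.05 and 9.09. *Smad1* ends a chromosome 8 stretch in which 91 of 93 genes tested, *Smad1* among them, were lower in that library (below). Its lower value cannot be told apart from that of the stretch, and *Smad5* mRNA was not lower. These mRNA counts do not show whether the proteins were lost, so this library is called dKO-labelled throughout. Barcodes needed 1000 or more detected genes and 5% or less mitochondrial UMIs, and 2236 WT cells (95965242 UMIs, median 38662 a cell) and 2910 cells labelled S1/5 dKO (109020533 UMIs, median 34548.5) were kept, and they shared 0 barcodes. Of the markers of the cell type, *Pou5f1* had 1316 and 1292 CPM, while of the markers of primed cells *Fgf5* had 0.042 and 0.018 CPM, *Otx2* 4.13 and 4.80 and *Pou3f1* 14.3 and 16.3. The endoderm markers *Gata4*, *Sox17*, *Gata6* and *Dab2* were between 0.17 and 1.10 CPM, and the fibroblast markers *Col1a1*, *Col1a2* and *Thy1* between 0.021 and 0.82. With 1 library per condition there is no replicate, no test between conditions is possible, and each interval below is an exact 95% Poisson interval that covers counting error only.

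Most zinc finger proteins of this kind carry C2H2 fingers, short units in which a pair of cysteines and a pair of histidines hold a zinc ion and the residues between them contact DNA. Many also have a KRAB domain, which recruits the corepressor TRIM28 and through it the H3K9 methyltransferase SETDB1 and HP1 proteins. In mESCs this machinery is known for silencing endogenous retroviruses and some imprinted or placental promoters, and KRAB genes arose largely by tandem duplication, so that they lie in clusters in the mouse genome. Other *Zfp* genes have no KRAB domain and act in transcription, RNA handling, ribosome maturation or ubiquitin and SUMO conjugation.

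The 290 genes had these features. A coding sequence was found for 288 of them in the annotation, of which 150 matched a KRAB A box and 283 held at least 1 C2H2 finger, with a median of 11 and a maximum of 36. KRAB members had a median of 12 fingers and the 138 members without a match a median of 8. By position, 165 members lay in 23 clusters (at least 3 members, neighbours less than 500 kb apart), among them 112 of the KRAB members. The repeat unit is printed here for 4 KRAB genes named in the library comparison, from GENCODE M21 transcripts (GRCm38). *Zfp988* and *Zfp951* were past 1.5-fold in that comparison, and *Zfp990* and *Zfp961* were not. Each unit is given as the 84 bases from the first cysteine of a finger to the residue before the first cysteine of the next one. The codons of the pair of cysteines and the pair of histidines that hold the zinc ion are in capitals.
Zfp990, chr4:145537325-145537408, plus strand: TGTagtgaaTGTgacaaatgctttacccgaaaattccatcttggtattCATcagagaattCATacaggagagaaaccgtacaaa
Zfp988, chr4:147331834-147331917, plus strand: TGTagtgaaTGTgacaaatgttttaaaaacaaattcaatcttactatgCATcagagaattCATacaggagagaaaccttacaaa
Zfp961, chr8:71968410-71968493, plus strand: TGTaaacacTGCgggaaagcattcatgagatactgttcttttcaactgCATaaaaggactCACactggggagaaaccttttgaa
Zfp951, chr5:104815084-104815167, minus strand: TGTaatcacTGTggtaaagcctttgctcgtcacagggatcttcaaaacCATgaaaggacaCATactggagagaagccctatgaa
Of these 84 bases, *Zfp988* shared 73 with its chromosome 4 neighbour *Zfp990*, whereas *Zfp951* shared 53 and *Zfp961* 47. For the counts of this 3′ assay it is likeness near the 3′ end that matters, since a read that fits several genes equally is not counted. In the last 500 bases of the longest annotated transcript, 265 members had no 100-base window that also occurs in a transcript of another gene, 25 had at least 1, and 8 had over 50% of their windows shared.

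Together the members took 409820 UMIs in WT and 474666 in the dKO-labelled library, which is 0.427% and 0.435% of all UMIs, while they made up 2.56% of the 11349 genes with at least 200 UMIs. Most were at low levels. The median member had 5.82 CPM in WT and 5.79 in the other library, 203 and 202 members were under 10 CPM, and 12 members held 37.3% of the UMIs of the group. A WT cell had a median of 164.5 UMIs from 82 different members, and a cell of the other library 149 UMIs from 76. In both libraries 42 members were detected in at least 50% of the cells and 56 in fewer than 10%. No cell type that lacks these genes was part of the libraries, so no background share from free RNA is given beside these. UMIs of this 3′ assay count molecules, so levels are compared between genes without a correction for length.

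The members with the most UMIs were mainly not KRAB genes. *Zfp706* (chromosome 15, 36997027 to 37007773), a small protein with 1 finger that acts in the exit from self-renewal, was the most abundant, at 321 CPM (318 to 325) among WT cells and 377 (373 to 381) among cells of the dKO-labelled library. *Zfp428* had 176 and 169. *Zfp207*, which acts at kinetochores and in splicing, had 159 and 151. The KRAB gene *Zfp990* had 150 and 176. *Zfp106*, an RNA-binding protein, had 125 and 124, and the nucleolar protein *Zfp330* had 113 and 120. The ribosome maturation factors *Zfp622* and *Zfp593* had 103 and 98.1, and 85.8 and 88.7. The KRAB genes *Zfp979* (92 and 95) and *Zfp985* (86.1 and 94.7), together with *Zfp64* (82.1 and 81.6) and the ubiquitin ligase *Zfp91* (74.5 and 71.9), completed the 12. *Zfp706* shared 29.9% of its 3′ windows with another gene.

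**Figure D1:**
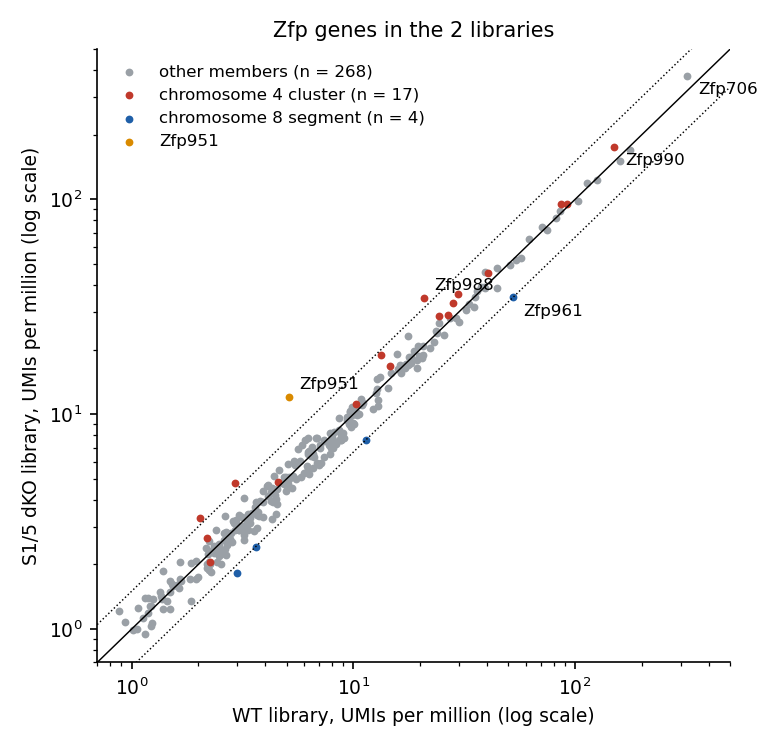
CPM of each of the 290 *Zfp* genes in the WT library (x axis) and the dKO-labelled library (y axis), both on log scales; the solid line is equality, the dotted lines are 1.5-fold. The points lie along the line, apart from *Zfp951* and part of the chromosome 4 cluster (17 genes) above it and the chromosome 8 segment (4 genes) below it.

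The library comparison sets the dKO-labelled library against WT. Between the libraries the *Zfp* genes were nearly level as a group, and the members past 1.5-fold were *Zfp951* and genes of 2 genomic clusters. The summed members differed by 0.028 on the log2 scale (0.022 to 0.034), the median member by −0.01, and 133 of 290 were above 0. At least 1.5-fold higher in the dKO-labelled library were 4 members, against 1.38% of all 11349 genes (157 genes), and at least 1.5-fold lower were 2 members, against 1.2% (136 genes). The shares of members past 1.5-fold are thus near those of all genes.

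The genes higher in the dKO-labelled library were led by *Zfp951* (chromosome 5, 104813169 to 104860070), a KRAB gene with 10 fingers. It had 493 UMIs in WT, or 5.14 CPM (4.69 to 5.61), and 1309 UMIs, or 12 CPM (11.4 to 12.7), in the dKO-labelled library, a log2 ratio of 1.22 (1.07 to 1.38). It was detected in 16.1% of WT cells and 32.5% of cells of the other library. Within the 25% of cells with the lowest share of ribosomal protein UMIs the log2 ratio was 1.37, and within the 25% with the highest 0.92. Of the other genes tested within 2 Mb only *Aff1* was above 0, at 0.48. The rest lay between −0.49 (*Ptpn13*) and −0.03 (*Nudt9*), among them *Spp1* at −0.05, *Zfp326* at −0.16 and *Zfp644* at −0.11.

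The other members past 1.5-fold upward, *Zfp988*, *Zfp600* and *Zfp991*, all lie in the distal chromosome 4 cluster, which was singled out after its values were seen. This stretch of 2.34 Mb, from *Zfp990* (starting at 145510759) to *Zfp933* (ending at 147848366), holds 17 members, 15 of them with a KRAB match and 2 without an annotated coding sequence, and took 13.8% of all UMIs of the *Zfp* genes. In it 16 of 17 members were higher in the dKO-labelled library, with a median log2 ratio of 0.22, and the interval lay above 0 in 14. Elsewhere, outside this cluster and the chromosome 8 segment, 117 of 269 members were above 0, with a median of −0.02, and the interval lay above 0 in 30 and below 0 in 54.

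Within the cluster, *Zfp988* had 20.8 CPM in WT and 34.6 in the dKO-labelled library (log2 ratio 0.74, 0.66 to 0.81), *Zfp600* had 2.94 and 4.77 (0.70, 0.49 to 0.91), *Zfp991* 2.04 and 3.28 (0.69, 0.43 to 0.94) and *Zfp978* 13.4 and 18.9 (0.50, 0.40 to 0.60). The most abundant member, *Zfp990*, had 150 and 176 (0.23, 0.19 to 0.26). The lowest ratios were those of *Zfp979* (0.05, 0.0044 to 0.09) and *Zfp933* (−0.14, −0.41 to 0.14). Summed, the cluster had 780 CPM over UMIs outside ribosomal protein and mitochondrial genes in WT and 895 in the dKO-labelled library, a log2 ratio of 0.20 (0.18 to 0.21), with 0.21 within the 25% of cells of lowest and 0.17 within the 25% of highest ribosomal share. Without these 17 genes the summed members differed between the libraries by −0.0011 on the log2 scale, and 1 member in place of 4 was at least 1.5-fold higher.

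Some of these ratios rest on genes whose 3′ ends are near copies of others. All 100-base windows of *Zfp600* occur in another gene's transcripts, 59.9% of those of *Zfp991*, 58.4% of *Zfp978* and 10.5% of *Zfp988*. In the cluster 12 of 17 members had a shared window, and of the 5 with none 4 were higher in the dKO-labelled library (*Zfp992* 0.29, *Zfp982* 0.18, *Zfp985* 0.14, *Zfp979* 0.05). The part of shared sequence in these ratios was not tested. Of 7 other genes tested inside the stretch, 5 were above 0 with a median of 0.06, and *Rex2*, another zinc finger gene, had 0.29. Of 36 genes within 2 Mb on either side, 17 were above 0 with a median of −0.02. The 5 other clusters of at least 10 members, on chromosomes 7, 13 and 17, had medians between −0.06 and −0.0017.

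**Figure D2:**
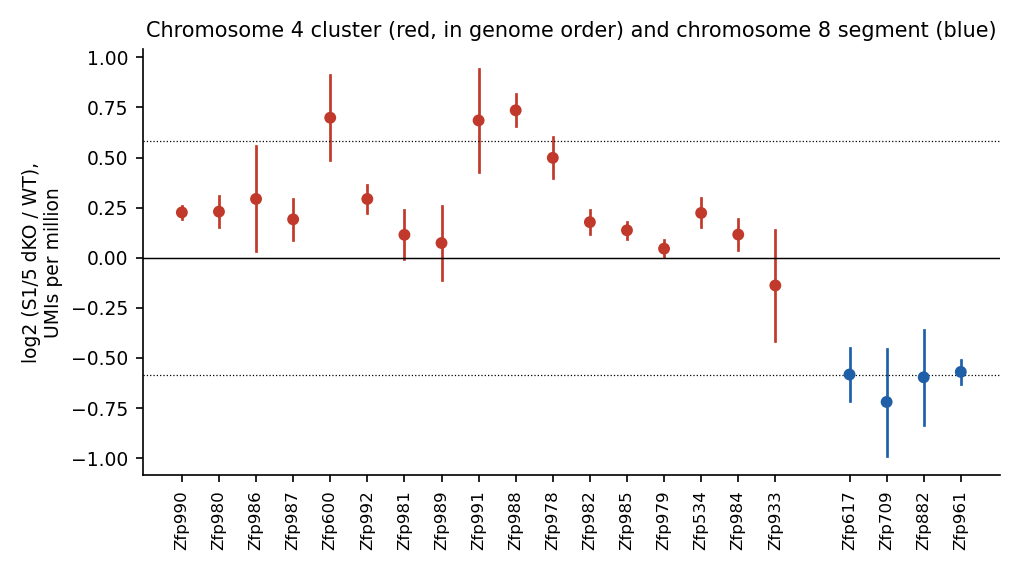
Log2 ratio of CPM, dKO-labelled library over WT, for the 17 members of the chromosome 4 cluster in genome order (red) and the 4 members of the chromosome 8 segment (blue); points are ratios, bars are 95% Poisson intervals and dotted lines mark 1.5-fold. The red points are above 0 except *Zfp933* at −0.14, and the blue points sit between −0.72 and −0.57.

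Members lower in the dKO-labelled library were led by 4 neighbouring KRAB genes of chromosome 8 between 71882019 and 71993792. *Zfp961*, which binds a retroviral primer binding site, had 52.3 CPM (50.8 to 53.7) in WT and 35.2 in the dKO-labelled library, a log2 ratio of −0.57 (−0.63 to −0.51), and was found in 82.4% and 66.9% of cells. *Zfp617* had 11.4 and 7.61 (−0.58), *Zfp882* 3.65 and 2.41 (−0.60) and *Zfp709* 2.99 and 1.82 (−0.72). *Zfp882* and *Zfp617* overlap by 7720 bases on the same strand, so reads could be split between them, and their separate values are uncertain. These genes lie in the stretch between *Borcs8* and *Smad1* (70139499 to 79399518), where 91 of 93 genes tested were below 0 with a median of −0.53. The 93 include the 4 members and *Smad1*, and the limits of the stretch were set with earlier results of these data known. The 4 members, with a median of −0.59, thus lay near their chromosomal neighbours, and a difference of the whole stretch cannot be told apart from one of these genes. Outside the stretch no member was at least 1.5-fold lower; the lowest with at least 500 UMIs were *Zfp383* (−0.41), *Zfp775* (−0.37), *Zfp612* (−0.32), *Zfp184* and *Zfp248* (both −0.31).

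Other members at the upper end were *Zfp580* (17.6 CPM in WT and 23.0 in the other library, log2 0.38), *Zfp946* (0.35) and *Zfp948* (0.35). Among members with known roles, the BMP-activated SMAD partner *Zfp423* had 18.3 and 18.5 CPM (log2 0.01, −0.08 to 0.11). Its paralog *Zfp521* had 21 and 29 UMIs and was not a member. None of the 8 ES cell regulators, the 11 RNA, ribosome and ubiquitin factors or the 7 corepressor and histone-complex partners was 1.5-fold apart. Only 1.38% of all 11349 genes were at least 1.5-fold higher and 1.2% lower, so lists this short say little about their roles here. *Zfp706* had the highest ratio of these lists at 0.23 (0.21 to 0.25), and *Zfp462*, a partner of the H3K9 methyltransferases G9a and GLP, had −0.21 (−0.27 to −0.15). Of the KRAB genes with known targets, *Zfp809*, which silences murine leukaemia provirus, had 6.85 and 7.77 CPM (0.18, 0.03 to 0.33), and *Zfp568*, which silences the placental *Igf2* promoter, 50.9 and 49.4 (−0.04, −0.10 to 0.01). *Zfp932* (0.03) and *Zfp819* (−0.01) had intervals that held 0, and *Zfp708*, of the same list, had 2 UMIs in WT and 0 in the other library. The 14 genes of the TRIM28 pathway had ratios between −0.12 and 0.10.

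Cells were next divided by the share of their UMIs on ribosomal protein genes. In each library the 25% of cells with the lowest share (low-share cells, 559 of WT and 728 of the dKO-labelled library) were set against the 25% with the highest (high-share cells), and CPM was here taken over the UMIs outside ribosomal protein and mitochondrial genes so that the share itself did not move the ratio. Median shares were 25.3% and 30.1% in low-share and high-share WT cells and 24.6% and 29.5% in those of the other library. The share is a range and not a cell type: 319 and 335 WT cells, and 456 and 469 cells of the other library, lay within 0.5 percentage points of the lower and upper limits.

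*Zfp* transcripts were more abundant in cells with a low ribosomal share, in both libraries. Summed members had 6712 CPM in low-share and 5505 in high-share WT cells, and 6846 against 5536 in the dKO-labelled library, a log2 ratio of 0.30 over both (0.29 to 0.31). From the 10% of cells with the lowest share to the 10% with the highest the level went from 7097 to 5410 in WT and from 7230 to 5407 in the other library, and each of the 9 steps went down in both. The middle 50% of low-share WT cells held 60.6 to 74.0 *Zfp* UMIs per 10000 and that of high-share WT cells 49.7 to 60.3. In the dKO-labelled library the ranges were 61.4 to 74.3 and 49.6 to 60.5. The ranges did not overlap in either library, but their nearest limits were close, at 60.6 and 60.3 in WT. They leave out the outer 50% of cells and describe cells, not replicates. No such range is given for other genes.

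**Figure D3:**
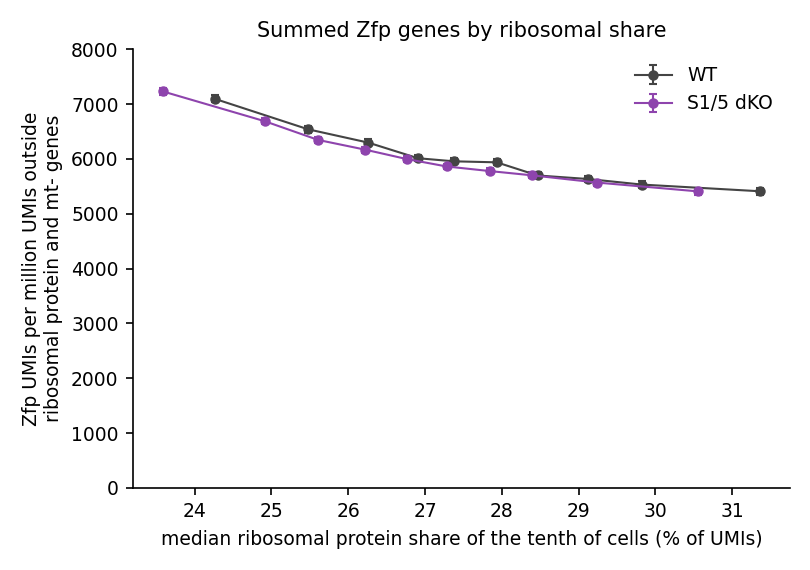
Summed CPM of the 290 *Zfp* genes over UMIs outside ribosomal protein and mitochondrial genes (y axis) in steps of 10% of the cells ordered by ribosomal protein share (x axis, median % of UMIs), with 95% Poisson intervals, for WT and the dKO-labelled library. Both lines go down, from 7097 to 5410 and from 7230 to 5407.

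By gene, 237 of 290 members (81.7%) were above 0, against 67.5% of the 11245 genes tested, and the median log2 ratio was 0.34 (0.33 in WT and 0.38 in the other library) against 0.18 for all genes. At least 1.5-fold higher in low-share cells were 68 members (23.4%) against 17.1% of all genes, and 1 member, *Zfp362* with −0.60, was at least 1.5-fold lower, against 0.791%. The interval lay above 0 in 176 of 290 members and below 0 in 15, against 5328 and 1973 of the 11245 genes. Scaled with TMM factors, which set the median of all genes to 0.02, the median of the members was 0.18 and 40 of 290 were at least 1.5-fold higher and 4 lower, against 957 and 202 of the 11245 genes. Of the 231 members with at least 500 UMIs, 204 had the same sign in both libraries (Pearson's r across genes 0.81), and of the 89 with at least 2000 UMIs 85 did (0.92); the genes share cells and depth and are not independent.

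The members with the highest ratios came from both classes. Among genes without a KRAB match, *Zfp462* had 86.7 CPM in low-share and 44.7 in high-share WT cells, and 77.5 and 36.8 in the dKO-labelled library, a log2 ratio of 1.01 (0.92 to 1.11). *Zfp407* had 16.1 and 7.23, and 15.4 and 7.38 (1.11, 0.89 to 1.33). *Zfp451*, a SUMO ligase, had 48.2 and 26.8, and 48.2 and 22.4 (0.98, 0.85 to 1.10). *Zfp106* had 227 and 137, and 236 and 129 (0.80, 0.75 to 0.86). Of the KRAB genes, *Zfp990* had 278 and 165, and 332 and 179 (0.83, 0.78 to 0.88), and *Zfp65* (1.09), *Zfp869* (1.01), *Zfp600* (1.01) and *Zfp59* (0.98) were at lower levels. *Zfp986*, without an annotated coding sequence, had the highest ratio of members with at least 500 UMIs, 1.12.

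The opposite direction was less common. *Zfp688* had 20.9 CPM in low-share and 29.9 in high-share WT cells, and 22.4 and 33.9 in the dKO-labelled library, a log2 ratio of −0.56 (−0.70 to −0.43). *Zfp524* was at −0.40, *Zfp456* at −0.32, *Zfp580* at −0.27, *Zfp637* at −0.26, *Zfp365* at −0.26, *Zfp13* at −0.24 and *Zfp511* at −0.23. The abundant *Zfp706* was at −0.03 (−0.07 to −0.0040).

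**Figure D4:**
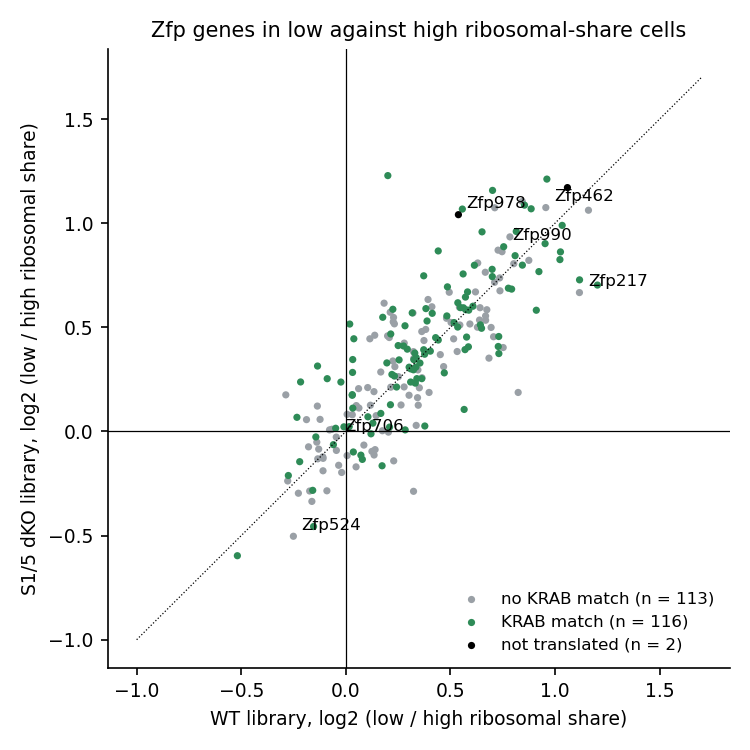
Log2 ratio of low over high ribosomal-share cells in the WT library (x axis) and the dKO-labelled library (y axis) for the 231 *Zfp* genes with at least 500 UMIs, coloured by KRAB match; the dotted line is equality. Most points are in the upper right, and 204 of 231 have the same sign in both.

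By role, all 7 corepressor and histone-complex partners were above 0, with a median of 0.80: besides *Zfp462*, these were *Zfp217* (0.89), a partner of KDM1A and CoREST, *Zfp609* (0.81), *Zfp638* (0.80), which silences retroviral DNA, *Zfp516* (0.71), *Zfp335* (0.41) and *Zfp644* (0.27). Of the 8 ES cell regulators 6 were above 0 and 3 at least 1.5-fold higher, namely *Zfp281* (0.86), which represses *Nanog*, *Zfp131* (0.62) and *Zfp143* (0.59), whereas *Zfp296*, a partner of Klf4, was at −0.07 (−0.16 to 0.02). Of the 11 RNA, ribosome and ubiquitin factors 10 were above 0 and 2 at least 1.5-fold higher, *Zfp106* and *Zfp451*. The 60S maturation factors *Zfp622* (0.16) and *Zfp593* (−0.02) and the ligase of collided ribosomes *Zfp598* (0.24) were near the median of all genes or below it. All 5 KRAB genes with known targets were above 0, *Zfp568* (0.66) and *Zfp809* (0.60) at least 1.5-fold. *Zfp423* had 0.65 (0.51 to 0.79). Of all 11245 genes tested, 67.5% were above 0 and 17.1% at least 1.5-fold higher. The 7 corepressor and histone-complex partners had longest annotated transcripts of 4587 to 10465 bases. Of all genes with at least 4000 bases, 89.3% were above 0 and 34.3% at least 1.5-fold higher, with a median of 0.46. The part of transcript length in these ratios by role was not tested.

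In the TRIM28 pathway 14 of 14 genes were above 0, against 67.5% of all genes tested, with a median of 0.37. *Trim28* itself had 0.09 (0.06 to 0.11), and the largest ratios were those of the HUSH subunit *Fam208a* (0.94), *Chd4* (0.91), *Morc2a* (0.83) and *Setdb1* (0.80). The genes with these largest ratios had longest annotated transcripts of 5652 to 7590 bases, and all genes with at least 4000 bases had a median of 0.46. Related zinc finger families had medians of 0.67 (*Zfp* names that end in letters, 24 genes), 0.35 (*Zbtb*, 36), 0.32 (*Zscan* and *Zkscan*, 16) and 0.20 (*Klf* and *Sp*, 21), beside 0.18 for all genes tested; these differences were not tested.

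KRAB members had a median log2 ratio of 0.40 and the others of 0.29. By abundance the medians showed no steady trend. They were 0.44 against 0.24 for members with under 1000 UMIs and 0.33 against 0.38 for 1000 to under 5000. For at least 5000 UMIs (14 and 25 members) they were 0.34 against 0.24. The parts of abundance and of transcript length in the difference between the classes were not tested. By fingers, the 147 members with 11 or more had 0.39, the 88 with 6 to 10 had 0.29 and the 48 with 1 to 5 had 0.29. The 17 members of the chromosome 4 cluster were all above 0, with a median of 0.52, and 6 were at least 1.5-fold higher. The 7 other genes tested inside that stretch were also all above 0, with a median of 0.41, and 2 were at least 1.5-fold higher. Among all 11245 genes tested, 67.5% were above 0 and 17.1% at least 1.5-fold higher.

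The ratio moved with the length of the transcript, in the *Zfp* genes as in all genes. For genes whose longest annotated transcript had under 2000 bases the median of all genes was −0.10 and that of 21 members 0.09. For 2000 to under 4000 bases it was 0.15 against 0.29 for 155 members, of which 15.5% were at least 1.5-fold higher against 9.72% of all. For at least 4000 bases it was 0.46 against 0.49 for 114 members, with 34.2% against 34.3% at least 1.5-fold higher. In the longest class the members thus did not stand above other genes, and the difference from all genes lay in the shorter ones. By abundance the members differed from all genes most where UMIs were many: with at least 5000 UMIs the median was 0.30 in 39 members and 0.03 in all 4034 genes, with 1000 to under 5000 0.35 against 0.25, and with under 1000 0.35 against 0.25.

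Other measures also moved with the ribosomal share. Median UMIs a cell were 39519 in low-share and 35414 in high-share WT cells, and 35655 and 30932.5 in the other library. The nuclear RNA *Malat1* had 2181 and 1071 CPM in WT and 2218 and 1204 in the other library. Summed genes of replication licensing had 1473 and 1188, and 1389 and 1045, while summed mitosis genes had 2413 and 2453, and 2510 and 2651. Cells under 10000 UMIs numbered 2 and 32 in WT and 5 and 40 in the other library. With the cells divided within 5 bins of UMIs the log2 ratio of the summed members was 0.30, and without the cells under 10000 UMIs 0.29. The part of *Malat1* and of the replication and mitosis genes in the *Zfp* ratios was not tested.

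**Figure D5:**
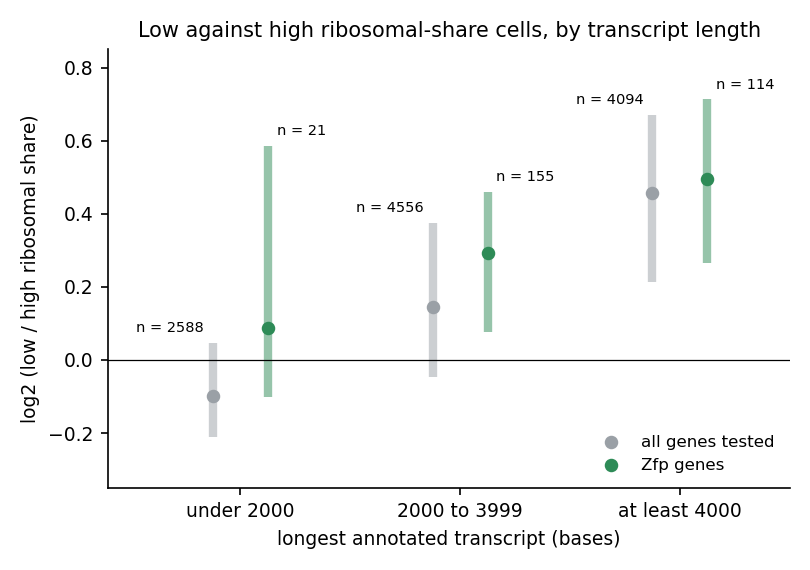
Log2 ratio of low over high ribosomal-share cells (y axis) by length of the longest annotated transcript (x axis, bases) for all genes tested (grey) and the *Zfp* genes (green); points are medians and bars the middle 50% of genes. Both medians rise with length, from −0.10 to 0.46 and from 0.09 to 0.49.

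Some members were less evenly spread over cells than their mean level gives. With 1 rate per UMI in all cells, a Poisson distribution gives *Zfp296* in 76.4% of WT cells and 72.8% of cells of the other library, and it was found in 65.0% and 62.8%, the largest gap of all members. *Zfp462* was found in 74.0% where 80.4% were given, and in 64.5% where 72.4% were. *Zfp978* (35.8% for 41.9%, and 41.2% for 48.6%), *Zfp980* (56.8% for 61.5%, and 55.9% for 62.6%), *Zfp532* (56.0% for 61.3%, and 54.9% for 60.1%) and *Zfp704* (54.4% for 59.4%, and 47.7% for 53.2%) followed, 2 of them from the chromosome 4 cluster. The median gap of the members was 0.43 percentage points in WT and 0.33 in the other library, against 0.72 and 0.68 for all 11245 genes tested. With at least 5000 UMIs it was 2.54 and 2.44 in members and 1.35 and 1.36 in all genes. With 1000 to under 5000 it was 0.85 and 0.69 against 1.06 and 0.95, and with under 1000 0.13 and 0.10 against 0.21 and 0.17. The class with at least 5000 UMIs was not matched in level. Its median was 8838 UMIs in members and 13715.5 in all genes. Median detection there was 75.9% and 72.5% of cells in members, against 87.0% and 84.6% in all genes. The part of level in the larger gap of these members was not tested. Of the genes named in this paragraph, *Zfp462*, *Zfp978* and *Zfp532* were also at least 1.5-fold higher in low-share cells, whereas *Zfp296* was at −0.07.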

How the data were processed

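Per the labels, libraries were made with the Chromium Single Cell 3′ v3 kit, and the authors used Cell Ranger 3.0.2 with the mm10 build to align the reads and count UMIs. The deposited matrices hold raw counts for all barcodes of the kit, without normalization. Cells were kept at the limits above, and no doublets were removed. UMIs were summed over cells, divided by all UMIs (libraries) or by UMIs outside ribosomal protein and mt- genes (low against high ribosomal share), and compared as ratios with exact 95% Poisson intervals, with Python 3.11.15, numpy 2.4.6 and scipy 1.17.1. No test was made. The ratio step was tested on simulated data. Fingers and KRAB A boxes were found by pattern in the longest translated GENCODE M21 coding sequence, so divergent domains are missed. The genes named singly are the 12 with the most UMIs; among members with at least 500 UMIs the 8 highest and 8 lowest ratios of each comparison (for the ribosomal one with the same sign in both libraries); the 6 largest gaps from Poisson; those of the chromosome 8 stretch, the role lists and the minimum. *Rex2*, *Zfp362* and the neighbours of *Zfp951* were added after their values were seen. Members, lists and the limits of the chromosome 8 stretch were chosen with earlier results of these data known. TMM factors came from edgeR 4.0.16 in R 4.3.3. Depth limits the precision: a member with 200 UMIs has wide intervals. Alternatives were other scalings, minimums, cell limits, thinning and divisions of the cells.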

Additional observations from a re-analysis of the deposited data

Results flagged for a closer look

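*Zfp* UMIs also occurred outside the cells analysed. Barcodes with 10 to 100 UMIs, which hold mostly free RNA, had 6846 *Zfp* UMIs of 1764311 in WT and 7527 of 1958216 in the dKO-labelled library. This is 3880 UMIs per 1000000 (CPM) (3789 to 3973) and 3844 CPM (3757 to 3932), against 4270 and 4354 in the kept cells. Over UMIs outside ribosomal protein and mt- genes the values lay closer together. They were 5861 in these barcodes against 6042 in the kept cells in WT, and 5805 against 6111 in the dKO-labelled library. No member with at least 500 UMIs had intervals on opposite sides of 0 in the 2 libraries in the ribosomal comparison.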

How the results depend on the processing

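No paired analysis was possible because there is 1 library per condition, so that the groups share fewer than 2 replicate numbers. The summed members' log2 ratio between the libraries was 0.037 with median-of-ratios factors, 0.021 as a mean over cells, 0.014 with cells thinned to 10000 UMIs, 0.022 without cells over 2 times the median UMIs, 0.036 without the chromosome 8 stretch and, in alternatives added after seeing the data, −0.0011 without the chromosome 4 cluster, 0.0081 without both, 0.016 over UMIs outside ribosomal protein and mt- genes, and 0.038 and 0.022 in low-share and high-share cells. Members at least 1.5-fold higher numbered 9 after thinning (248 of all 11349 genes) and 7 in low-share cells (248). Without the chromosome 4 cluster they numbered 1 (154 of the other genes), with or without the chromosome 8 stretch. Members at least 1.5-fold lower numbered 1 with a minimum of 500 UMIs (70 of all genes with that minimum). They numbered 1 without cells over 2 times the median UMIs (136 of all 11349 genes), 1 in low-share (273) and 6 in high-share cells (326). Without the chromosome 8 stretch they numbered 0 (108 of the other genes). In the ribosomal comparison the summed log2 ratio was 0.40 over all UMIs, 0.41 between the outer 10% of cells, 0.18 between the lower and upper 50%, 0.29 in WT alone, 0.31 in the dKO-labelled library alone, 0.14 with TMM and 0.26 without the chromosome 4 cluster. Members at least 1.5-fold higher numbered 122 between the outer 10% (3202 of all 11245 genes), 18 between the 50% groups (382) and 40 with TMM (957). Those at least 1.5-fold lower numbered 0 over all UMIs (42 of all genes), between the 50% groups (16) and within UMI bins (51). They also numbered 0 with a minimum of 500 UMIs (37) and without -ps genes (87). They numbered 5 between the outer 10% (259 of all genes), 3 after thinning (194) and 2 without cells over 2 times the median UMIs (92). In the dKO-labelled library alone they numbered 3 (154) and with TMM 4 (202). The 10% and 50% groups differ from the 25% groups by construction; for the others the cause was not tested. No gene named singly that was 1.5-fold apart changed sign. Depth limits single genes: thinning keeps fewer UMIs of each.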
